A study of Mus musculus with 6 samples.

Results

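Condensins are ring-shaped protein complexes that fold chromosomes into compact rods at mitosis. Smc2 and Smc4 form the ATP-driven core of both known condensins. Condensin I adds Ncapd2, Ncapg and Ncaph, and acts after the nuclear envelope breaks down, while condensin II adds Ncapd3, Ncapg2 and Ncaph2 and stays in the nucleus throughout the cycle. Topoisomerase II alpha, encoded by Top2a, untangles sister DNA as the chromosomes condense, and Ki-67, encoded by Mki67, coats the chromosome surface and is widely used as a mark of cycling cells. The 9 genes described here were chosen by symbol: Smc2, Smc4, Ncapd2, Ncapg, Ncaph, Ncapd3, Ncapg2, Top2a and Mki67. Each had 1 row among the 53465 genes of the deposited table, and all 9 passed the filter on low counts that left 15533 genes to test.

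Transcripts were measured by sequencing poly-A RNA of sorted mouse bone marrow cells. The mice were wild type and had received 5.0 Gy of radiation to the whole body. Afterwards 1 group was given carnosine, a small histidine-containing dipeptide found in muscle, and the other saline, and each group has 3 libraries. The sort for long-term haematopoietic stem cells (LT-HSCs) took lineage-negative cells with surface Sca-1 and c-Kit and without Flk2 and CD34. The labels used here do not state mouse strain, sex or age, the dose of carnosine, the time of sampling, or whether a library came from 1 mouse or from a pool. The p-values therefore measure only how far these libraries differ, and part of that spread may be technical. Both groups were irradiated, so no level here is that of an unirradiated cell.

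Total counts per library ran from 12730837 to 13651553 with carnosine and from 12602067 to 16866534 with saline. Mitochondrial genes took 4.62% to 4.65% of the counts with carnosine and 5.14% to 5.17% with saline, so this share separated the groups, and its part in the results below was not tested. Transcripts of the gate genes did not all follow the sort. Kit lay between 319 and 382 CPM (counts scaled to library size by TMM, which also adjusts for library composition) over the 6 libraries, but Flt3, which encodes Flk2, at 177 to 220 CPM and Cd34 at 298 to 346 CPM were abundant, and Ly6a, which encodes Sca-1, was at 22.9 to 39.6 CPM. LT-HSC therefore names the gate in what follows. The gate genes also differed between the groups. Kit was higher with carnosine (373.5 to 381.5 CPM, against 319.1 to 339.5 CPM with saline). Flt3 was lower with carnosine (177.1 to 181.9 CPM, against 202.3 to 219.5 CPM with saline). Cd34 was lower by a narrow gap (297.6 to 306.4 CPM with carnosine, against 308.4 to 346.1 CPM with saline), and the groups overlapped for Ly6a. In bulk RNA, fewer cells of a kind and less RNA per cell cannot be told apart, and this holds for every level below, including those of genes that mark cells in mitosis.

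Promoters of many mitotic genes carry a cell cycle homology region (CHR), often with CCAAT boxes upstream of it, which are bound by MuvB-containing complexes and by NF-Y. RefSeq promoter windows of 300 bases (250 before the transcription start and 50 from it, GRCm38.p6) were found for 8 of the 9 genes. Smc4 has no entry in that table. Ncapd3 has 2 windows, and for each gene the counts use the window nearest to the gene start in the deposited table, which for Ncapd3 lies 10 bases from it. The letters searched on both strands were TTTGAA and TTTAAA for the CHR, CCAAT for the NF-Y box, and TTCGCGC and TTGGCGC for an E2F-type site. No match of one motif overlapped a match of another in the windows printed here. The next lines give the 250 bases before the start of 4 of the genes, 5′ to 3′ on the coding strand, with matches in capitals. The first 3 have both a CHR and an NF-Y box. They include the gene with the largest difference between the groups (Ncapg, log2 fold change 0.60) and a gene with a small difference (Mki67, 0.12). The last, Ncapd3 (0.14), has neither in the window nearest to its start, nor has Ncaph (0.29), whose sequence is not printed. A link between motifs and differences was not tested.
Ncapg, chr5:45669675-45669924, plus strand: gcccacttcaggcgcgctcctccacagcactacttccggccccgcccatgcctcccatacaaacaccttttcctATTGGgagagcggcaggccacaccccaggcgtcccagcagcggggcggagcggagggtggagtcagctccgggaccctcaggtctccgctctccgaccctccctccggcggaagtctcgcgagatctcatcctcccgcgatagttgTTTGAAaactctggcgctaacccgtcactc
Top2a, chr11:99024190-99024439, minus strand: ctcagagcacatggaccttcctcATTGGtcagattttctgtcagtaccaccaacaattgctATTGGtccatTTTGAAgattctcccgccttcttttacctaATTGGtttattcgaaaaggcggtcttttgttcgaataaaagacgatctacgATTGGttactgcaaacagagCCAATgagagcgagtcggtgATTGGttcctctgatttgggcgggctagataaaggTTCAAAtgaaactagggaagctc
Mki67, chr7:135716380-135716629, minus strand: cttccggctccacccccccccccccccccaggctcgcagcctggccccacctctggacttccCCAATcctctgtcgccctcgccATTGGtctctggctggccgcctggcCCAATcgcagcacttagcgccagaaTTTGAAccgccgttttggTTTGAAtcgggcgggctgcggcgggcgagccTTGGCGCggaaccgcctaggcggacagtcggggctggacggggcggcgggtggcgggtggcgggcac
Ncapd3, chr9:27029915-27030164, plus strand: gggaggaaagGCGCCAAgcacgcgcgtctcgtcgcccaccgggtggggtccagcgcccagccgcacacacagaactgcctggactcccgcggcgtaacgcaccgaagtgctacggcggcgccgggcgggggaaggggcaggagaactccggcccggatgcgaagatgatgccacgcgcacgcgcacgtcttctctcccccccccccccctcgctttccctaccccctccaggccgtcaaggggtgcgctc

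TTTGAA stood in 6 of the 8 windows, against 17.9% of the 32851 promoter windows of the same length, and TTTAAA in 0 of 8 (13.2% of all windows). The 8 windows are 1 per gene, whereas the shares of all windows count every window of 27025 genes, including further windows of the same gene. CCAAT stood in 5 of 8 (37.4% of all windows), and the same 5 genes, Smc2, Ncapd2, Ncapg, Top2a and Mki67, held both a CHR and an NF-Y box, as did 10.7% of all windows. TTGGCGC was found in 4 of 8, namely Ncapd2, Ncaph, Ncapd3 and Mki67 (2.45% of all windows), and TTCGCGC in 0 of 8 (1.59%). In the Ncapg promoter the TTTGAA ran from position -30 to -25, counted from the start with -1 as the base before it. Ncapg2 had its only match, TTTGAA, from -18 to -13. The Top2a window held 6 CCAAT matches between -227 and -54 and a TTTGAA on the minus strand from -23 to -18. Ncaph and Ncapd3 had a single E2F-type match each. The other Ncapd3 window, 30241 bases from the start in the deposited table, held a TTTGAA from -249 to -244 and a TTTAAA from -132 to -127, with no CCAAT and no E2F-type match. A match of letters is a description of the sequence. It does not show that a factor bound there, and a window without one shows only that these letters are not in it. The windows start from RefSeq's transcription start. The start in the deposited table lies 0 to 34 bases from it for 7 of the genes and 115 bases from it for Ncapd2.

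**Figure D1:**
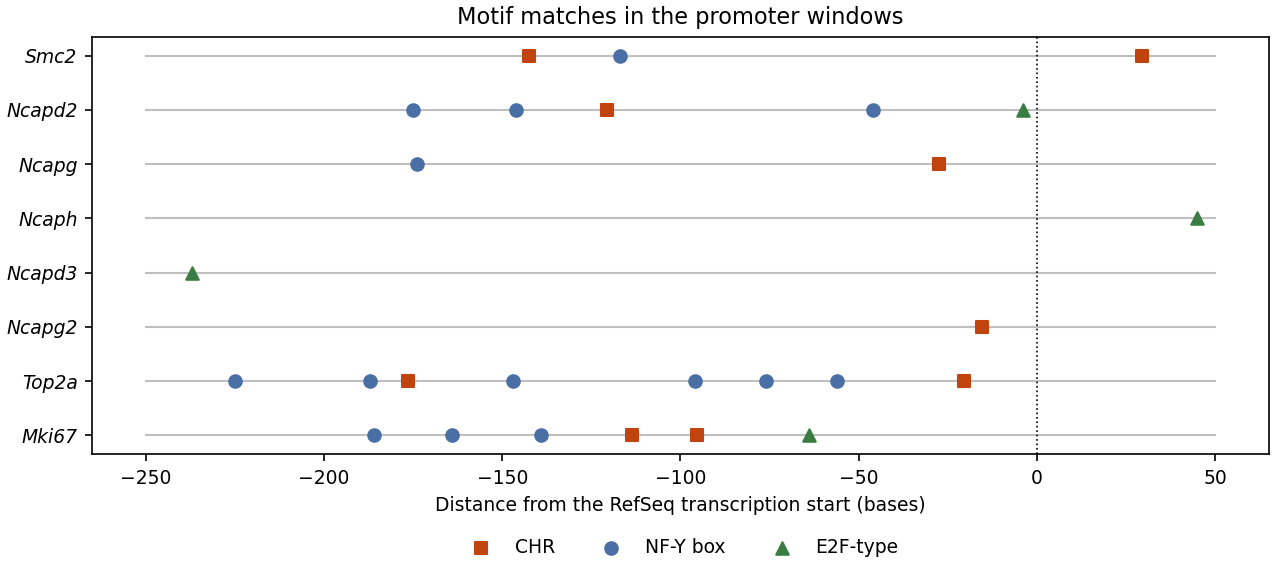
Motif matches in the promoter windows of the 8 genes with a RefSeq window, with the nearer window for Ncapd3. The x axis is the distance in bases from the transcription start, each row is a gene, squares are CHR matches, circles NF-Y boxes and triangles E2F-type matches on either strand; CHR matches appear in 6 rows and are missing from the Ncaph window and from the Ncapd3 window shown.

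Of the 9 genes, 8 were higher with carnosine and 0 lower (quasi-likelihood test of edgeR, adjusted p under 0.05 after Benjamini-Hochberg). At an unadjusted p under 0.05 the number lower was also 0, as it was with DESeq2 and limma. Of all tested genes, 19.6% were higher and 19.8% lower by the same rule. The differences were small, with a median log2 fold change of 0.20 over the 9 genes and of -5e-05 over all genes tested. The 3 carnosine libraries all lay above the 3 saline libraries for the same 8 genes, which was so for 26.2% of the tested genes. Smc4 was the gene that did not pass. Together the 9 genes took 0.337% to 0.341% of each carnosine library's counts and 0.287% to 0.289% of each saline library's. These shares are counts over the library's total count. They have no adjustment for composition, so they are not on the TMM scale of the fold changes above.

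**Figure D2:**
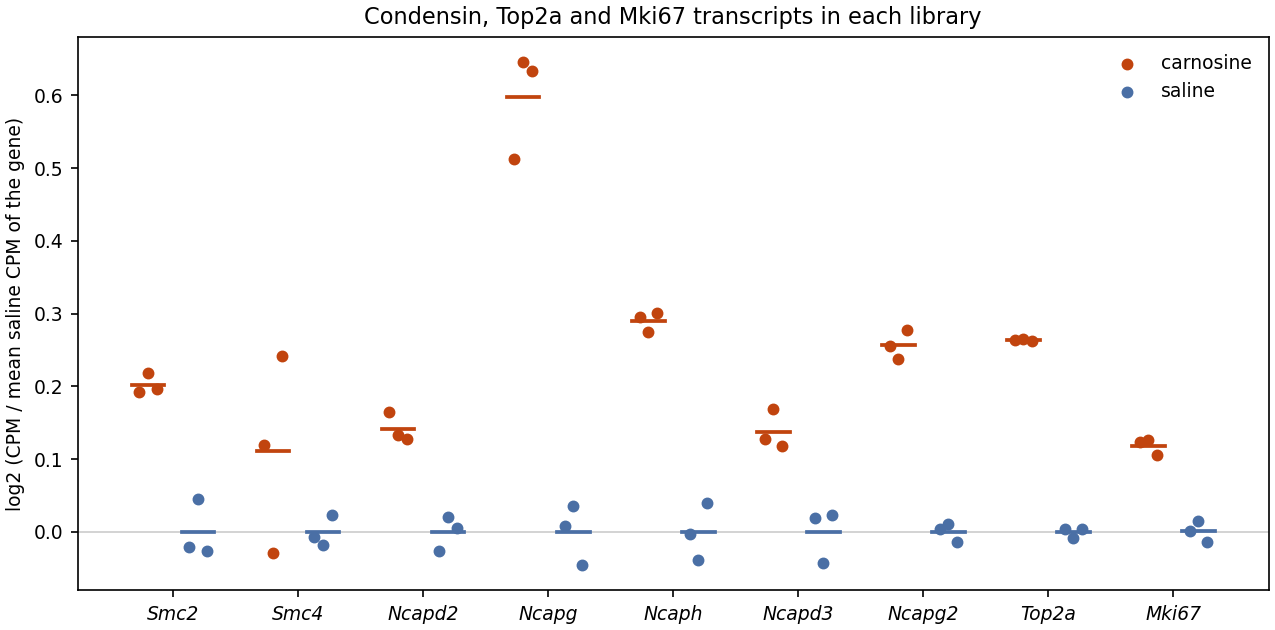
Level of each gene in each library, as log2 of its CPM over the gene's mean CPM in saline. Points are libraries, short lines are group means, with carnosine left of saline for each gene; Ncapg has the widest gap, and Smc4 is the gene whose groups overlap.

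Of the core subunits, Smc2 rose and Smc4 did not pass the test. Smc2, one of the ATPase arms of the ring, had 261, 265.7 and 261.7 CPM in the carnosine libraries, against 225.2, 235.8 and 224.4 CPM in the saline libraries. Its groups did not overlap, and it rose by a log2 fold change of 0.20 ± 0.0281 (SE; adjusted p = 0.0013, edgeR). The other ATPase arm, Smc4 (ENSMUSG00000034349, chromosome 3, 69004738 to 69034623, GRCm38), had 348.1, 314.1 and 378.8 CPM with carnosine, against 319, 316.6 and 325.7 CPM with saline. On this scale carnosine replicate 2 lay below all saline libraries, and carnosine replicate 1 and carnosine replicate 3 above them. In deposited FPKM (counts scaled to gene length and library size, with no adjustment for composition) Smc4 had 43.2, 39 and 47 with carnosine, against 38, 37.9 and 38.8 with saline, so there carnosine replicate 2 also lay above every saline library and the groups did not overlap. With limma-trend on log2(FPKM + 1) the difference was 0.16 and did not pass (adjusted p = 0.096). The carnosine libraries were spread 1.21-fold from lowest to highest, whereas the saline libraries of Smc4 were spread 1.03-fold and the carnosine libraries of each other gene at most 1.10-fold. The log2 fold change of Smc4 was 0.11 with a 95% interval of -0.031 to 0.26 (adjusted p = 0.19, edgeR), an interval that also holds the estimate for Smc2. Without carnosine replicate 2, Smc4 passed the test with 0.18 ± 0.0404 (SE; adjusted p = 0.017, edgeR; the 16 alternatives spanned 0.017 to 0.47), and without carnosine replicate 3 its log2 fold change was 0.049. The call for Smc4 thus rested on single libraries. Deposited FPKM values put Smc4 over Smc2 at 0.976, 0.866 and 1.06 with carnosine, against 1.04, 0.983 and 1.06 with saline, and the groups overlapped (exact two-sided permutation p = 0.40).

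All 3 subunits particular to condensin I rose. Ncapg (ENSMUSG00000015880, chromosome 5, 45669919 to 45700546, GRCm38), a HEAT-repeat subunit, had the largest difference of the 9 genes. It had 83.8, 91.8 and 91.1 CPM in the carnosine libraries, against 59, 60.2 and 56.9 CPM in the saline libraries. The lowest carnosine library stood well above the highest saline library, and the level was 1.51-fold higher (log2 fold change 0.60 ± 0.0507, SE; adjusted p = 0.00012, edgeR). Of all tested genes, 92% had a lower log2 fold change. The 3′ part of Ncapg overlaps Lcorl on the opposite strand over 3366 bases in the GENCODE M21 annotation. Lcorl was itself higher, at 43.9 ± 2.09 CPM with carnosine and 33.6 ± 3.66 CPM with saline (SD, n = 3 each; log2 fold change 0.39, adjusted p = 0.011, edgeR). The labels do not state whether the authors counted reads by strand, and the part of reads shared between Ncapg and Lcorl was not tested.

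Ncaph, the kleisin subunit that closes the condensin I ring, came next. It had 94.3, 93 and 94.7 CPM with carnosine, against 76.7, 74.8 and 79 CPM with saline, with no overlap and a log2 fold change of 0.29 ± 0.037 (SE; adjusted p = 0.00085, edgeR). Ncapd2, the other HEAT-repeat subunit of condensin I, had 447.3, 437.6 and 436 CPM in carnosine libraries, against 391.8, 404.8 and 400.5 CPM in saline libraries. That difference was a log2 fold change of 0.14 ± 0.0236 (SE; adjusted p = 0.003, edgeR), small beside that of Ncapg but with separate groups. The log2 fold changes of the 3 subunits thus ran from 0.14 to 0.60. The FPKM of Ncapg over that of Ncapd2 was 0.144, 0.162 and 0.161 with carnosine, against 0.116, 0.114 and 0.109 with saline. Ncapg over Ncaph was 0.443, 0.493 and 0.480 with carnosine, against 0.384, 0.401 and 0.359 with saline. In both ratios the groups did not overlap. The exact two-sided permutation p was 0.10, the smallest that 3 against 3 libraries allow (0.13 adjusted over the 4 ratios tested). This test could therefore not reach a p under 0.05. Neither ratio was planned in advance, nor were tests of ratios, and both ratios take the gene with the largest difference.

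Both condensin II subunits among the 9 genes rose. Ncapg2, the condensin II counterpart of Ncapg, had 135.6, 133.9 and 137.7 CPM with carnosine, against 113.9, 114.4 and 112.5 CPM with saline. Its groups were tight and well apart, and its log2 fold change was 0.26 ± 0.0283 (SE; adjusted p = 0.00044, edgeR). Ncapd3, the counterpart of Ncapd2, had 148, 152.3 and 147 CPM with carnosine, against 137.3, 131.5 and 137.7 CPM with saline. The groups did not overlap but the gap was narrow, and the log2 fold change of 0.14 ± 0.0318 (SE; adjusted p = 0.012, edgeR) did not pass with the DESeq2 Wald test (adjusted p = 0.083; the 16 alternatives spanned 0.0074 to 0.083). Ncapg2 over Ncapd3 by FPKM was 0.865, 0.830 and 0.884 with carnosine, against 0.783, 0.822 and 0.771 with saline (exact two-sided permutation p = 0.10, 0.13 adjusted over the 4 ratios). That ratio was not planned in advance either.

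The kleisin of condensin II, Ncaph2, is not among the 9 genes but completes the complex. It had 192, 194.6 and 199.7 CPM with carnosine, against 215, 206.8 and 177 CPM with saline. The saline libraries spanned the whole carnosine range, and the log2 fold change was -0.031 with a 95% interval of -0.19 to 0.13 (adjusted p = 0.75, edgeR). That interval overlaps the 95% interval of Ncapd3 (0.063 to 0.21) and lies below that of Ncapg2 (0.19 to 0.32). The difference between these genes was not tested. For Ncaph2, saline replicate 3 lay below every carnosine library and the other saline libraries lay above them.

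Top2a (ENSMUSG00000020914, chromosome 11, 98992943 to 99024189, GRCm38) gave the smallest p-value of the 9 genes by edgeR. With the DESeq2 Wald test the smallest adjusted p was that of Ncapg (4.4e-12), and Top2a had 3.6e-08 with an SE of 0.0441. It had 714.9, 715.7 and 714.5 CPM in the carnosine libraries, against 597.3, 592.3 and 597.1 CPM in the saline libraries. The libraries of a group hardly differed, by 1.002-fold with carnosine and 1.008-fold with saline, and the groups stood 1.20-fold apart (log2 fold change 0.26 ± 0.0186, SE; adjusted p = 5.1e-05, edgeR). Its paralog Top2b, the topoisomerase II of resting as well as dividing cells, was at 378 ± 7.99 CPM with carnosine and 398 ± 7.14 CPM with saline (SD, n = 3 each), and its log2 fold change of -0.075 did not pass (adjusted p = 0.056, edgeR). By FPKM, Top2a over Top2b was 2.94, 2.82 and 2.88 with carnosine and 2.32, 2.22 and 2.30 with saline, with no overlap. Mki67 was the most abundant of the 9 genes by count, at 1102, 1105 and 1089 CPM with carnosine, against 1013, 1022 and 1002 CPM with saline. The groups were separate, yet its difference was near the smallest of the set, at a log2 fold change of 0.12 ± 0.0191 (SE; adjusted p = 0.0026, edgeR). With GC content and length corrected for, the log2 fold change was 0.22. The DESeq2 Wald test gave Mki67 an SE of 0.043 (adjusted p = 0.024).

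Levels of different genes were set side by side by FPKM. In saline libraries Mki67 was highest at 95.7 ± 1.11 FPKM, followed by Top2a at 54.3 ± 0.166, Ncapd2 at 43.8 ± 0.769, Smc4 at 38.2 ± 0.497 and Smc2 at 37.2 ± 1.11 FPKM (SD, n = 3). The remaining condensin subunits were lower, with Ncaph at 13 ± 0.331, Ncapd3 at 12.1 ± 0.287, Ncapg2 at 9.54 ± 0.101 and Ncapg at 4.96 ± 0.151 FPKM. Carnosine libraries kept this order, at 108 ± 0.897 FPKM for Mki67 and 7.81 ± 0.387 FPKM for Ncapg at the 2 ends, except that Smc2, at 44.6 ± 0.435 FPKM, came before Smc4, at 43.1 ± 3.99 FPKM. Smc2 and Smc4 were the only neighbours whose libraries overlapped, and they did so in both groups. The mean FPKM of the 3 condensin I subunits over that of the 2 condensin II subunits was 1.94 ± 0.0177 with carnosine and 1.91 ± 0.0395 with saline, and the groups overlapped. They did not overlap with the longest coding transcript as the length, chosen after seeing the data (1.82 to 1.84 with carnosine and 1.75 to 1.81 with saline), or with geometric means of FPKM (1.46 ± 0.012 with carnosine and 1.32 ± 0.0189 with saline).

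This order depends on the gene length behind FPKM. The length recovered from the deposited counts and FPKM values ran from 5783 bases for Ncaph to 11651 bases for Ncapg2, and was 1.03 times the longest coding transcript in GENCODE M21 for Mki67 but 3.13 times for Ncapg. It exceeded the joined exons of every one of the 9 genes, by 1.03 to 1.64 times. With the longest coding transcript as the length, an alternative chosen after seeing the data, Top2a came before Mki67 in both groups, at 139.4 ± 0.218 against 111.2 ± 0.923 CPM per kilobase in carnosine libraries and at 111.6 ± 0.342 against 98.4 ± 1.15 in saline libraries (CPM here on the library's total count). Smc4 then stood well above Smc2, at 81.9 ± 7.58 against 49.5 ± 0.483 in carnosine libraries and at 72.7 ± 0.945 against 41.4 ± 1.24 in saline libraries. Ncapg remained lowest, at 24.4 ± 1.21 with carnosine and 15.5 ± 0.473 CPM per kilobase with saline. Fold changes of single genes in the fits to counts do not depend on this length. Those of limma-trend on log2(FPKM + 1) can, because of the added 1.

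**Figure D3:**
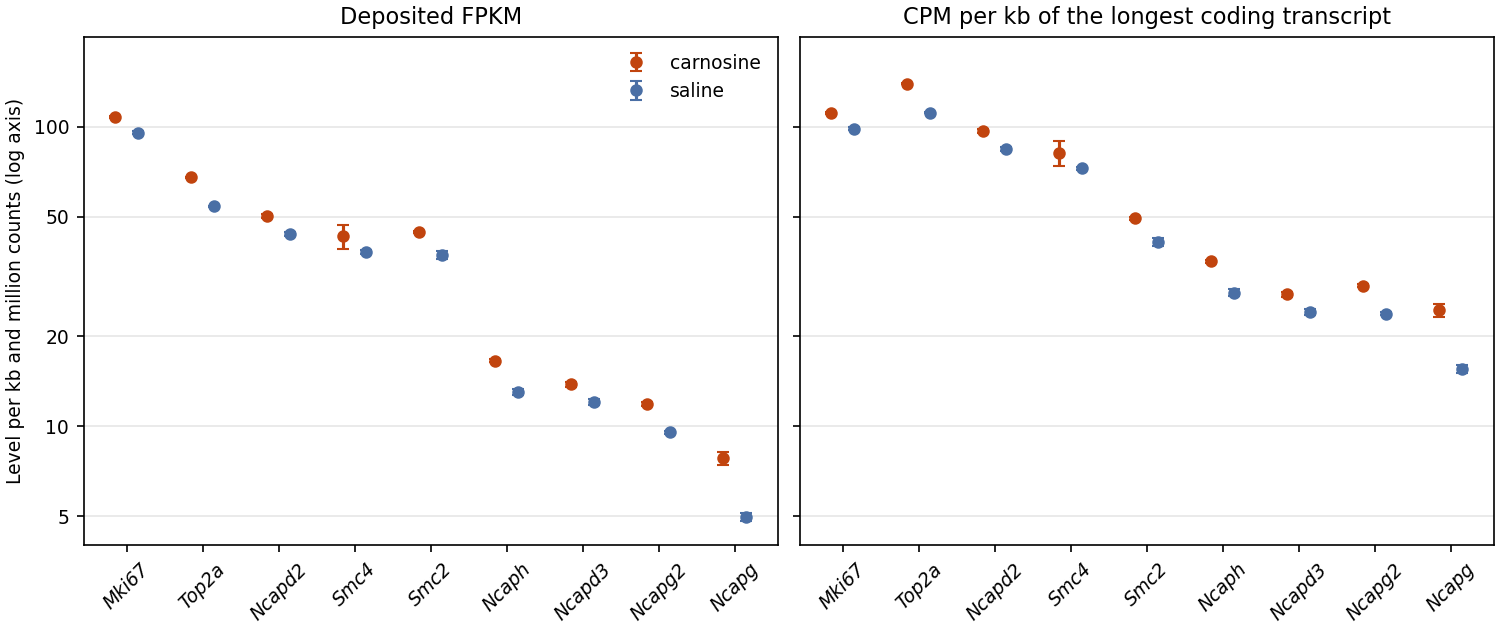
Level of the 9 genes per kilobase, scaled to library size, on a log axis, as mean and SD of 3 libraries per group, with carnosine left of saline. The left panel uses the deposited FPKM and the right panel the longest coding transcript as length; Mki67 is highest in the left panel and Top2a in the right.

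Partners and regulators of condensin were likewise higher or did not pass the test. Of 12 such genes tested, 7 were higher with carnosine and 0 lower, with a median log2 fold change of 0.29. At an unadjusted p under 0.05, 1 was lower by edgeR, and 0 were lower by adjusted p with DESeq2, limma-voom or limma-trend. The 2 with the smallest p-values encode subunits of the chromosomal passenger complex, which helps load condensin I. Incenp, its scaffold, was at 249 ± 1.53 CPM with carnosine and 198 ± 2.34 CPM with saline, and Aurkb, its kinase, at 78.5 ± 4.45 CPM with carnosine and 54.1 ± 0.792 CPM with saline (SD, n = 3 each; log2 fold changes 0.33 and 0.54). Cohesin, the related ring that holds sister chromatids together, was mixed: of 18 genes of cohesin and its regulators, 6 were higher and 3 lower (median 0.050). Sgo2a, a protector of cohesin at centromeres, was at 41.2 ± 1.71 CPM with carnosine and 21.5 ± 1.77 CPM with saline, and Espl1, which encodes separase, the protease that cuts cohesin, at 128 ± 7.05 CPM with carnosine and 92 ± 3.32 CPM with saline. Nipbl, the cohesin loader, was lower, at 235 ± 1.15 CPM with carnosine and 271 ± 4.95 CPM with saline, as was Pds5b, a regulator of cohesin release (log2 fold changes -0.21 and -0.12).

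The third family of such complexes, SMC5/6, which serves DNA repair, had 1 gene higher and 2 lower of 9 (median -0.023). Slf1, which recruits the complex to damage, was the one that was higher (0.33 ± 0.0883 on the log2 scale, SE), and Smc5 and Eid3 were lower (-0.11 and -1.05). Of 7 other topoisomerase and related repair genes, 2 were higher, Top3b and Top1mt (0.39 and 0.27 on the log2 scale), and 1 lower, Top1 (-0.079). In these 2 lists the counts changed under many of the alternatives. Of 14 genes of the chromosome periphery, 3 were higher and 1 lower (median -0.0029). Kif22, a chromosome-bound kinesin, and Nop56, a nucleolar protein, had the smallest p-values among the rises (0.45 and 0.22), and the helicase gene Ddx21 was lower (-0.18).

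Genes of S phase and DNA replication did not move together. Of 20 tested, 4 were higher and 7 lower, with a median log2 fold change of 0.0014. Rrm2, a subunit of ribonucleotide reductase, was at 238 ± 2.32 CPM with carnosine and 161 ± 5.97 CPM with saline (log2 fold change 0.57), and the helicase component Cdc45 was also higher (0.29). Pola1, the catalytic subunit of DNA polymerase alpha, was at 182 ± 1.26 CPM with carnosine and 201 ± 0.721 CPM with saline (-0.14), and the helicase subunit Mcm3 was lower as well (-0.13). With limma-trend on the FPKM values this split was 7 higher and 2 lower, and with the GC and length correction it was 5 higher and 9 lower. The limma-trend fit had no composition scaling, and in it 3387 of 13348 tested genes were higher and 2156 lower (median 0.051). By edgeR 3038 of 15533 tested genes were higher and 3077 lower. Of 15 genes of the DREAM complex, FOXM1 and E2F factors, which control cell cycle promoters, 7 were higher and 3 lower (median 0.14). Mybl2, part of the MuvB complex that activates mitotic genes, was at 138 ± 2.94 CPM with carnosine and 117 ± 2.43 CPM with saline, and the pocket protein gene Rbl1 was also higher (log2 fold changes 0.24 and 0.21). E2f1 and Rbbp4 were lower (-0.27 and -0.11).

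**Figure D4:**
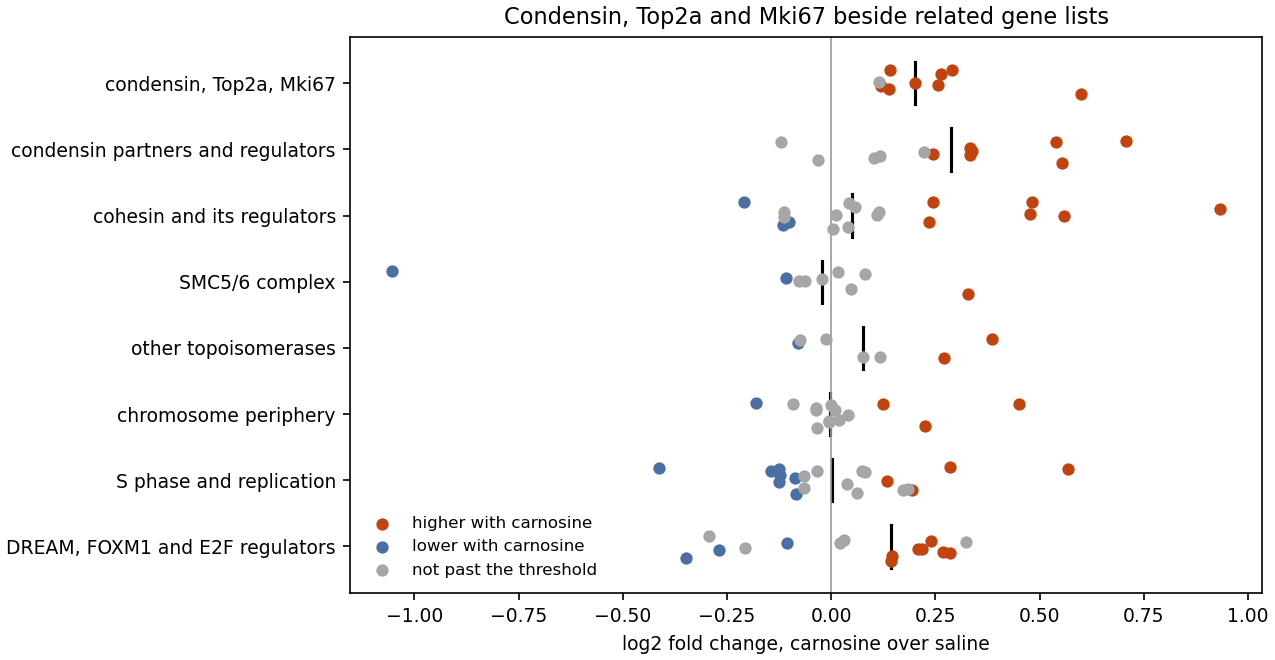
Log2 fold change, carnosine over saline, of each tested gene in the 9-gene set and 7 related lists. Points are genes, coloured by whether they passed edgeR's test and in which direction, and black lines are list medians; the condensin genes and the condensin partners have no gene called lower, while the S phase list has 7.

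Among 9956 other genes of at least 10 CPM on average, those most like the mean profile of the 9 genes included Atad2, Crnkl1, Parp2 and Snx2. Likeness was the root-mean-square difference of log2 CPM, each gene centred on its own mean, over the 6 libraries, and came to 0.012 for Atad2, a chromatin ATPase, and 0.0146 for Snx2, a sorting nexin of endosomes. The log2 fold changes of these named genes ran from 0.23 to 0.26, so what they shared was a group difference of similar size. Of the 9 genes themselves, Ncapg2 (0.0137) and Top2a (0.0173) lay closest to their mean profile and Ncapg (0.19) and Smc4 (0.0955) farthest from it.

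Markers of other cell types moved between the groups too. All 9 tested markers of granulocyte and monocyte progenitors were higher with carnosine, and their summed level (CPM on the library's total count, as for all list sums) was 8370 to 8600 CPM with carnosine and 3935 to 3984 CPM with saline. Elastase (Elane) was at 741 ± 13.8 CPM with carnosine and 227 ± 8.32 CPM with saline. Of 9 stem cell markers 0 were higher and 7 lower, with a summed level of 347 to 366 CPM with carnosine and 647 to 660 CPM with saline, and Hoxb5 was under 1 CPM on average. Megakaryocyte markers were lower in 8 of 8 cases (194 to 202 CPM with carnosine and 375 to 399 CPM with saline). Of 10 erythroid markers 7 were higher and 2 lower (1972 to 2005 CPM with carnosine and 1608 to 1647 CPM with saline). In the lists with 0 genes higher, that number was 0 at an unadjusted p under 0.05 in edgeR and with DESeq2 and limma too. The part of such a shift in cell types in the levels of the 9 genes was not tested.

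Further marker lists covered neutrophils, lymphoid cells, and stroma with endothelium. Of mature neutrophil markers 3 were higher and 3 lower of 9 (58.2 to 60.2 CPM with carnosine and 52.6 to 57 CPM with saline), with Camp, Retnlg and Mmp9 under 1 CPM on average. B and plasma cell markers (2 higher and 1 lower of 10) summed to 512 to 817 CPM with carnosine and 478 to 491 CPM with saline, and Ms4a1 was under 1 CPM on average. T and NK cell markers (5 higher and 2 lower of 8) summed to 130 to 141 CPM with carnosine and 89.7 to 92.8 CPM with saline, with the T cell receptor complex genes Cd3e, Cd3d and Cd3g all under 1 CPM on average. Stromal and endothelial markers (0 higher by each of these tools and 4 lower of 6 by edgeR) summed to 137 to 144 CPM with carnosine and 156 to 168 CPM with saline.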

How the data were processed

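Poly-A RNA was sequenced as paired-end libraries made with a stranded kit, per the labels' protocols. CASAVA 1.8, HISAT2, StringTie, edgeR and GRCm38 are named without roles in the submitters' processing notes. The annotation, the use of strand and the handling of shared reads are not stated there or in the labels. The deposited table holds whole-number counts, which are not normalized, and FPKM values, which equal the count over a gene length and the library's total count (checked where the mean count was 100 or more), per the file headers and values. Groups and replicate numbers come from the sample titles.

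The test over all genes used edgeR 4.0.16 under R 4.3.3 (filterByExpr, TMM scaling, quasi-likelihood F-test of carnosine over saline, no covariate, Benjamini-Hochberg adjustment over 15533 genes, threshold 0.05). Standard errors are the log2 fold change over the square root of F. Libraries of a group differed by 1.79 to 2.11 times sampling noise (median squared difference), so none was treated as a copy of another. This does not show that they came from separate mice. The biological coefficient of variation was 0.0999. Replicate numbers were not used as pairs in this test. Deviations of same-numbered libraries correlated at 0.00791 to 0.0268, and those of differently numbered libraries at -0.025 to 0.00359.

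The 9 genes and the lists were chosen with earlier results of these data known. All 9 are named, with the 2 smallest p-values per direction and list and the 5 most similar genes, of which 1 is not reported here. Ncaph2, Top2b and Lcorl were named as the missing subunit, the paralog and the overlapping gene. Alternatives were the Wald test of DESeq2 1.42.0 and its size factors, limma-voom (limma 3.58.1), upper quartile scaling, a minimum of 5 CPM in 3 libraries, no filter, limma-trend on log2(FPKM + 1) with a minimum of 1 FPKM in 3 libraries, a replicate block, a GC and length correction (splines of 5 degrees of freedom), both together, and each library left out.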

Additional observations from a re-analysis of the deposited data

How the results depend on the processing

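Across 16 alternatives to the edgeR test, Smc2, Ncapd2, Ncapg, Ncaph, Ncapg2, Top2a and Mki67 kept their direction and stayed past the threshold in each one. Ncapd3 did so in 15, and had a log2 fold change of 0.14 with an adjusted p of 0.083 in the DESeq2 Wald test. For each of the 9 genes the SE of that test was larger than that of edgeR. It was 0.0554 for Smc2 and 0.0494 for Ncapd2 (adjusted p = 0.0017 and 0.018, DESeq2 Wald test). Smc4 stayed short of the threshold in 15 and passed without carnosine replicate 2, with log2 fold changes from 0.049 to 0.18 over the libraries left out. The cause was not tested. The number of the 9 genes called higher was 7 with the DESeq2 Wald test, 9 without carnosine replicate 2 and 8 in the other alternatives, and the number called lower was 0 in all 16. The replicate block changed no call among the 9 genes and gave 8 higher.

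Lists of few genes at the threshold changed more. SMC5/6 genes higher were 2 with limma-trend on FPKM, 0 with the replicate block, also with the GC and length correction added, and 0 to 1 over the libraries left out. SMC5/6 genes lower were 1 with no filter, with at least 5 CPM in 3 libraries, with the DESeq2 Wald test, with limma-trend and with the replicate block, also with the correction, and 1 to 2 over the libraries left out. Other topoisomerase genes higher were 1 with no filter, the DESeq2 Wald test and the replicate block, and 1 to 2 over the libraries left out. Those lower were 0 with upper quartile scaling, no filter, the DESeq2 Wald test, limma-trend and the replicate block, 2 with at least 5 CPM in 3 libraries, and 0 to 1 over the libraries left out. Cohesin genes lower were 1 with the DESeq2 Wald test and limma-trend. Condensin partners lower were 1 with the GC and length correction and 0 to 1 over the libraries left out. Chromosome periphery genes lower were 2 with at least 5 CPM in 3 libraries, limma-voom and the GC and length correction, with and without the replicate block, and 1 to 2 over the libraries left out. S phase genes were 7 higher and 2 lower with limma-trend. Lower S phase genes numbered 3 under the DESeq2 Wald test and 3 to 5 over the libraries left out, against 7 by edgeR. Other settings gave more than edgeR. The GC and length correction found 9 lower, whether or not the replicate block was added, and the 5 CPM minimum found 8. DREAM, FOXM1 and E2F genes lower were 1 with limma-trend.

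With the longest coding transcript as length, chosen after seeing the data, Top2a stood at place 1 and Mki67 at place 2 in both groups, and in carnosine libraries Smc4 at 4, Smc2 at 5, Ncapg2 at 7 and Ncapd3 at 8. The ratio of condensin I to condensin II was then 1.83 with carnosine and 1.78 with saline, and with geometric means of FPKM it was 1.46 with carnosine and 1.32 with saline. The groups did not overlap in either. CPM on the TMM scale per recovered length left every place as it was. The 9 genes had 700 to 16708 counts per gene and library, and the part of counting error in their spread was not tested.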
